A study of Homo sapiens with 12 samples.

Results

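The loss of HIF1α and the loss of HIF2α in hypoxic U87 glioblastoma cells did not simply add up: for 2414 of the 11731 genes tested, the change in the cells lacking both factors differed from the sum of the changes in the cells lacking 1 factor. The comparison used all 12 libraries of the series, 4 groups of 3, as a 2 by 2 design. For each gene the interaction term was the mean log2(TPM + 1) of the dual knockout, minus that of each single knockout, plus that of the vector control. A positive term means that the dual knockout lay above the level expected from adding the single changes, and a negative term that it lay below. Of the 20263 genes in the table, the 11731 with at least 1 TPM (transcripts scaled to a fixed total per library) in at least 3 libraries were tested, whichever libraries those were.

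U87 (U-87 MG) is an established human glioblastoma cell line. All cells were kept under hypoxia (1% O2, 72 h per the series record), and the groups were cells with an empty vector (vector), HIF1α knockout cells (HIF1α-ko), HIF2α knockout cells (HIF2α-ko) and dual knockout cells (HIF1α/2α-ko). The methods give a shorter hypoxia time for measuring mRNA in general, so the duration behind these libraries is not certain. No normoxic library entered the comparison, so every effect is an effect of losing a factor under hypoxia. How the knockouts were made, and whether each line was 1 clone or a pool, is not given in the sources used here. The 3 libraries of a group are separate samples that the labels do not tie to separate lines or clones, and the p-values measure the spread between these samples.

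HIF1α and HIF2α are the oxygen-labile subunits of the hypoxia-inducible factors. With oxygen, prolyl hydroxylases mark them for degradation through VHL. Without it they pair with ARNT and bind the same short hypoxia response element, so that a target gene can be driven by either factor, by both, or mainly by 1 of them. HIF1α is best known for glycolytic enzymes and HIF2α for genes of matrix, growth and erythropoietin control. With 2 factors that share a partner and a binding site, the loss of 1 can leave a gene unchanged because the other still acts, and only the 4-group design separates such a gene from a gene that neither factor drives.

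Called genes were sorted by what each knockout did to them against vector. A gene was called for a contrast when limma's moderated test gave a Benjamini-Hochberg adjusted p under 0.05 across all 11731 genes. "Dual-only" genes, the form that redundancy takes here, were called in the dual knockout and in no single knockout, with each single change under 0.5 on the log2 scale. "More-than-additive" genes moved with a single knockout and moved further that way in the dual knockout than the sum. "Buffered" genes moved with a single knockout, and the dual change fell short of the sum. "Reversed" genes moved one way with a single knockout and the other way with both. "Opposed" genes moved in opposite directions in the 2 single knockouts.

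The deposited values are TPM, which sum to between 999955 and 999982 per library, so sequencing depth is unknown and no count interval can be given. The 10 most abundant genes held 18.191% to 23.855% of the TPM. The glioma line markers VIM and CD44 were abundant, at 5635 to 14690 TPM and 399 to 1412 TPM. The astrocytic markers GFAP, S100B and SOX2 stayed under 1 TPM in every library. Of 6 leukocyte markers only CD68 reached 1 TPM, at 587 to 1633 TPM, while PTPRC, the general leukocyte antigen, did not exceed 0.033 TPM. At most 3 of the endothelial, neuronal and epithelial markers on each list reached 1 TPM in any group. The first vector library stood apart from the others of its group: its correlation with them across the tested genes was 0.968 and 0.966, against 0.989 between the other two and at least 0.976 within every knockout group. Because the vector mean enters both single changes and, with the other sign, the interaction, some results that rest on this library are given below with and without it. Others, among them DDIT4, COL6A3, STEAP3 and HMOX1, are given with all libraries only, although their first vector library stood apart.

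The targeted genes were measured first. HIF1A, which encodes HIF1α, stood at 112, 110 and 152 TPM in the vector libraries and at 57.3, 49.5 and 38.6 TPM in HIF1α-ko, a log2 change of -1.34 ± 0.20 (SE, adjusted p = 0.000851). In HIF1α/2α-ko it was 89.2, 67.8 and 69.4 TPM, lower than vector (log2 -0.71 ± 0.20, adjusted p = 0.0104) but higher than in HIF1α-ko (0.64, adjusted p = 0.0287). Its interaction was 1.15 ± 0.28 (adjusted p = 0.0131), so the transcript of the first target itself departed from additivity. EPAS1, which encodes HIF2α, fell from 286, 333 and 346 TPM to 87.6, 118 and 116 TPM in HIF2α-ko and to 102, 120 and 130 TPM in HIF1α/2α-ko, with an interaction of 0.41 ± 0.21 (adjusted p = 0.173). Against vector, both transcripts were thus lower where their gene was targeted, and neither was absent. In HIF2α-ko, where HIF1A was not targeted, it was at 108, 76.1 and 76.65 TPM (log2 -0.52 against vector, adjusted p = 0.112, not called). By limma the dual knockout was not called against HIF2α-ko for HIF1A (log2 -0.19, adjusted p = 0.453). The transcript therefore does not show HIF1A targeting in the dual cells beyond the HIF2α-ko level. Transcript level does not measure the protein. ABCG2, a drug efflux pump named in the title of the series, stayed below 1 TPM in every library and was not tested.

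Departures were more often upward than downward. Of all tested genes, 20.6% were called, 1552 with a positive term (13.2% of those tested) and 862 with a negative term (7.35%). The median interaction of all tested genes was 0.12, and it was 0.05 with median ratio scaling and 0.01 with quantile normalization, so part of the upward excess depends on the scale chosen. With quantile normalization, 1350 terms were positive and 1312 negative. Against vector, HIF1α-ko changed 3060 genes (26.1%), HIF2α-ko 1286 (11.0%) and HIF1α/2α-ko 5473 (46.7%). The loss of HIF2α was called for 3322 genes (28.3%) when HIF1α was already absent. For 197 genes the loss of HIF2α was called in both backgrounds with opposite signs, and for 209 genes the loss of HIF1α was.

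**Figure D1:**
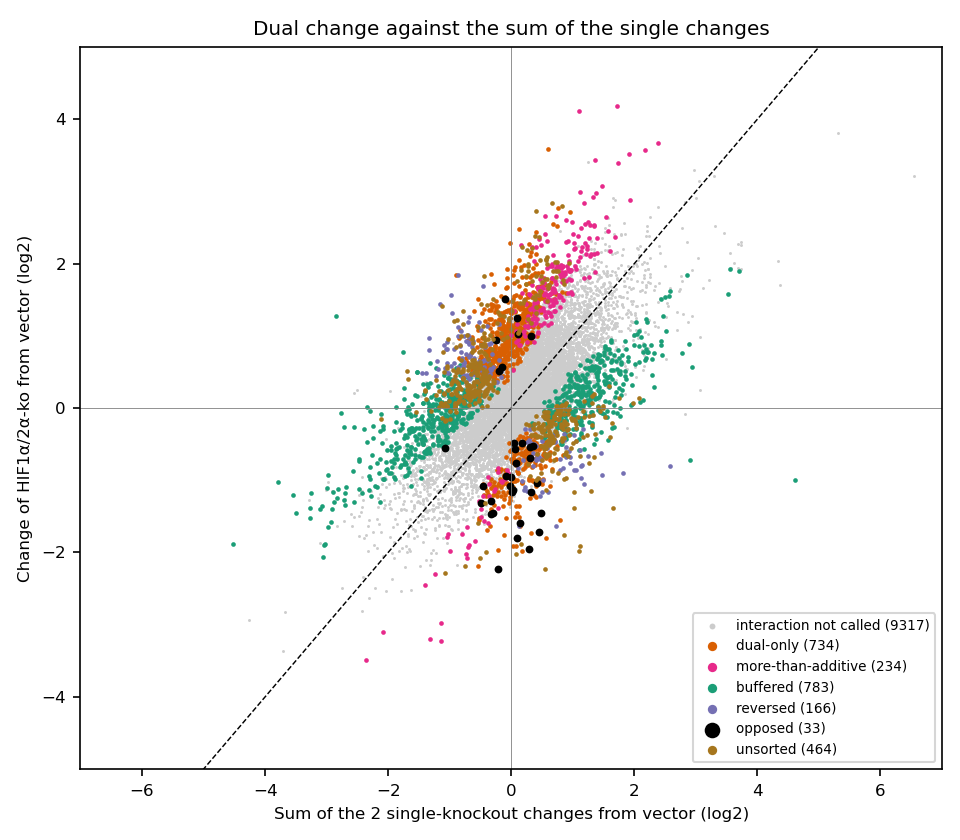
Each point is a tested gene. The horizontal axis is the sum of the HIF1α-ko and HIF2α-ko changes from vector, the vertical axis the HIF1α/2α-ko change from vector (both log2 of TPM + 1), and the dashed line marks additivity. The 9317 grey genes were not called; the 734 dual-only genes lie close to 0 on the horizontal axis and away from 0 on the vertical, and the 783 buffered genes lie on the shallow side of the line.

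Of the 2414 called genes, 734 were dual-only, 783 buffered, 234 more-than-additive, 166 reversed and 33 opposed. The other 464 were in none of these. For 312 of them no knockout was called against vector, and 152 were called in the dual knockout only but had a single change of at least 0.5. Of the dual-only genes, 543 were higher in the dual knockout and 191 lower, and 680 were also called against each single knockout. Of the 11731 tested genes, 42 reached 1 TPM only in dual knockout libraries. Such genes passed the filter through the group where they are high, and 24 of them were dual-only. At the edge of the filter, 204 genes reached 1 TPM in exactly 3 libraries, of which 48 were called, and 226 reached it in exactly 2 and were not tested.

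The patterns were not equally stable. When the fit was repeated 12 times, each time without 1 library, 1324 of the 2414 genes were called in all 12 fits. Leaving out the first vector library raised the buffered genes from 783 to 1775 and the negative terms from 862 to 1513. Leaving out the third vector library gave 367 buffered genes. Of the genes sorted with all libraries, 707 of the 734 dual-only genes kept a call of the same sign without the first vector library. So did 767 of the 783 buffered genes. The pattern itself was kept in that fit by 473 dual-only and 736 buffered genes. In all 12 fits it was kept by 173 dual-only genes with positive and 46 with negative terms. For buffered genes these counts were 136 and 148, for more-than-additive 52 and 8, for reversed 15 and 16 and for opposed 0 and 8. Dual-only counts moved by over 1.5 times only without HIF1α/2α-ko replicates 2 (471) and 3 (462). Buffered counts did so as well without HIF1α-ko replicate 3 (432), HIF2α-ko replicates 2 (463) and 3 (472) and vector replicate 2 (492). More-than-additive counts ran from 91 (without HIF1α-ko replicate 3) to 431 (without HIF1α/2α-ko replicate 1), and stayed within 1.5 times of 234 only without replicate 1 of vector, HIF1α-ko or HIF2α-ko. Reversed counts ran from 57 and opposed counts from 12, both without vector replicate 3, to 274 and 62, both without vector replicate 1. Both moved by over 1.5 times without any vector library, HIF1α-ko or HIF1α/2α-ko replicate 3, or HIF2α-ko replicate 2 or 3. The reversed count did so also without HIF1α/2α-ko replicate 2 and the opposed count without HIF1α-ko replicate 2. Positive terms fell to 976 without HIF1α-ko replicate 3 and 997 without HIF1α/2α-ko replicate 3. Negative terms fell to between 542 and 574 without HIF1α-ko replicate 3, HIF2α-ko replicate 2 or 3 or vector replicate 3.

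**Figure D2:**
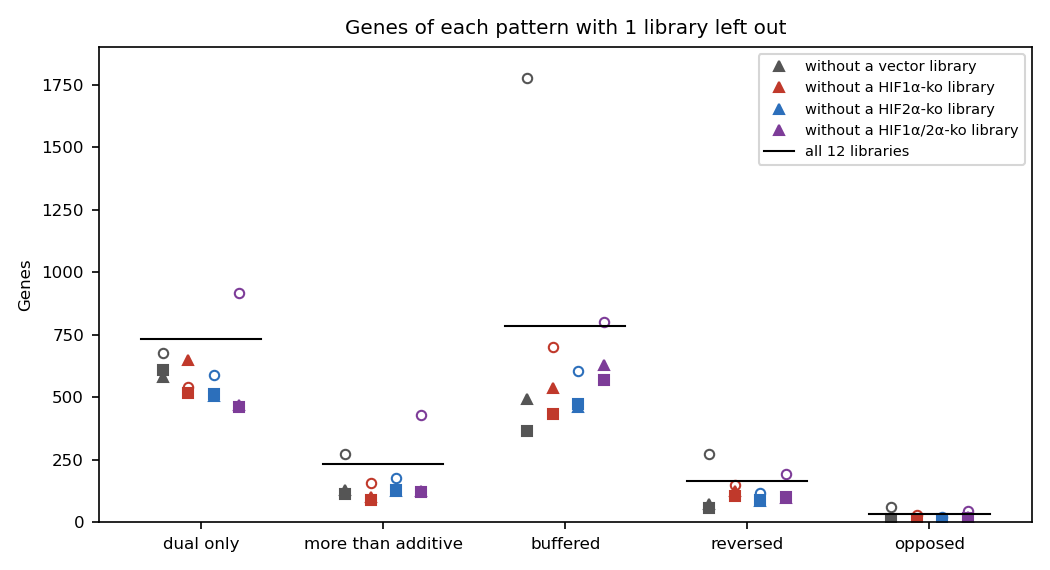
The vertical axis is the number of genes in each pattern when 1 library is left out; the horizontal axis names the pattern. Circles, triangles and squares are replicates 1, 2 and 3, colours name the group, and black lines give the count with all 12 libraries. The open grey circle at 1775 buffered genes is the fit without the first vector library.

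Dual-only genes, called with both factors lost and with neither loss alone, included some of the largest departures in the data. TNFRSF21, which encodes death receptor 6, was at 0.569, 0.364 and 0.202 TPM in vector, 0.565, 0.654 and 0.723 TPM in HIF1α-ko and 0.790, 0.716 and 0.677 TPM in HIF2α-ko. In HIF1α/2α-ko it was at 14.3, 15.7 and 16.7 TPM, where adding the single changes gives 1.07 TPM. All 3 dual libraries lay above the other 9, none of which reached 1 TPM, so the gene passed the filter only through the group where it is high. The interaction was 2.995 ± 0.20 (adjusted p = 2.42e-05). Below 1 TPM the added 1 shrinks log2 changes, so the single changes of TNFRSF21 (0.27 in HIF1α-ko and 0.33 in HIF2α-ko) are understated. Its pattern changed with at least 1 library left out. With a pseudocount of 0.1 in place of 1, 581 genes were dual-only instead of 734. RRS1, a factor for assembly of the large ribosomal subunit, was between 0.590 and 1.76 TPM in the other groups and at 6.36, 13.8 and 12.03 TPM in the dual knockout (interaction 2.35 ± 0.32, adjusted p = 0.0011). AKIRIN1, a nuclear protein, was at 3.31 to 10.3 TPM elsewhere and at 37.7, 18.7 and 38.7 TPM in the dual knockout (2.31 ± 0.37, adjusted p = 0.00193).

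The dual-only genes with the most negative terms showed the mirror image. TXNIP, an inhibitor of thioredoxin and of glucose uptake, was at 194 to 208 TPM in HIF1α-ko, 244 to 269 TPM in HIF2α-ko and 42.0, 56.1 and 63.2 TPM in HIF1α/2α-ko. Its vector libraries were uneven, at 376, 126 and 139 TPM. The groups did not overlap between the dual knockout and any other, and the interaction was -2.37 ± 0.45 (adjusted p = 0.00428) with all libraries and -2.87 without the first vector library. TREM1, an immunoglobulin-family receptor, was at 10.1 to 22.7 TPM in the other groups and at 2.27, 5.32 and 4.70 TPM in the dual knockout (-2.35 ± 0.36, adjusted p = 0.00174). OLFML3, a secreted matrix protein, stood at 41.2, 31.3 and 31.9 TPM in the dual knockout, 134 to 159 TPM in HIF1α-ko and 150 to 153 TPM in HIF2α-ko. Its vector libraries were uneven too, at 242, 112 and 97.96 TPM. The interaction was -2.15 ± 0.37 (adjusted p = 0.00282) and -2.55 without the first vector library. For all 3 of these genes the pattern changed with at least 1 library left out, while the interaction stayed called.

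More-than-additive genes moved with a single loss and further than the sum with both, and for 210 of the 234 the single knockout that was called was HIF1α-ko alone. GDF15, a stress cytokine of the TGF-β family and a p53 target, was at 15.6, 21.3 and 17.2 TPM in vector, 30.4, 38.2 and 39.0 TPM in HIF1α-ko and 22.1, 20.1 and 17.6 TPM in HIF2α-ko. In HIF1α/2α-ko it reached 320, 325 and 330 TPM, where additivity gives 39.4 TPM. The 3 dual libraries differed among themselves by little and from all others by far; the interaction was 3.01 ± 0.21 (adjusted p = 2.42e-05). AEN, a p53-induced nuclease of apoptosis, rose from 1.59 to 2.02 TPM in vector to 42.6, 56.5 and 53.8 TPM in the dual knockout, against an additive level of 8.36 TPM (2.46 ± 0.27, adjusted p = 0.000326). FOXK2, a forkhead transcription factor, was at 6.04 to 8.85 TPM in vector, 11.1 to 14.1 TPM in HIF1α-ko and 45.9, 51.0 and 51.8 TPM in the dual knockout (2.11 ± 0.23, adjusted p = 0.000306). SEMA5B, a semaphorin of axon guidance, fell from 97.5, 96.2 and 110 TPM to 13.6, 9.93 and 12.6 TPM, where additivity gives 45.1 TPM (-1.83 ± 0.21, adjusted p = 0.000468).

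**Figure D3:**
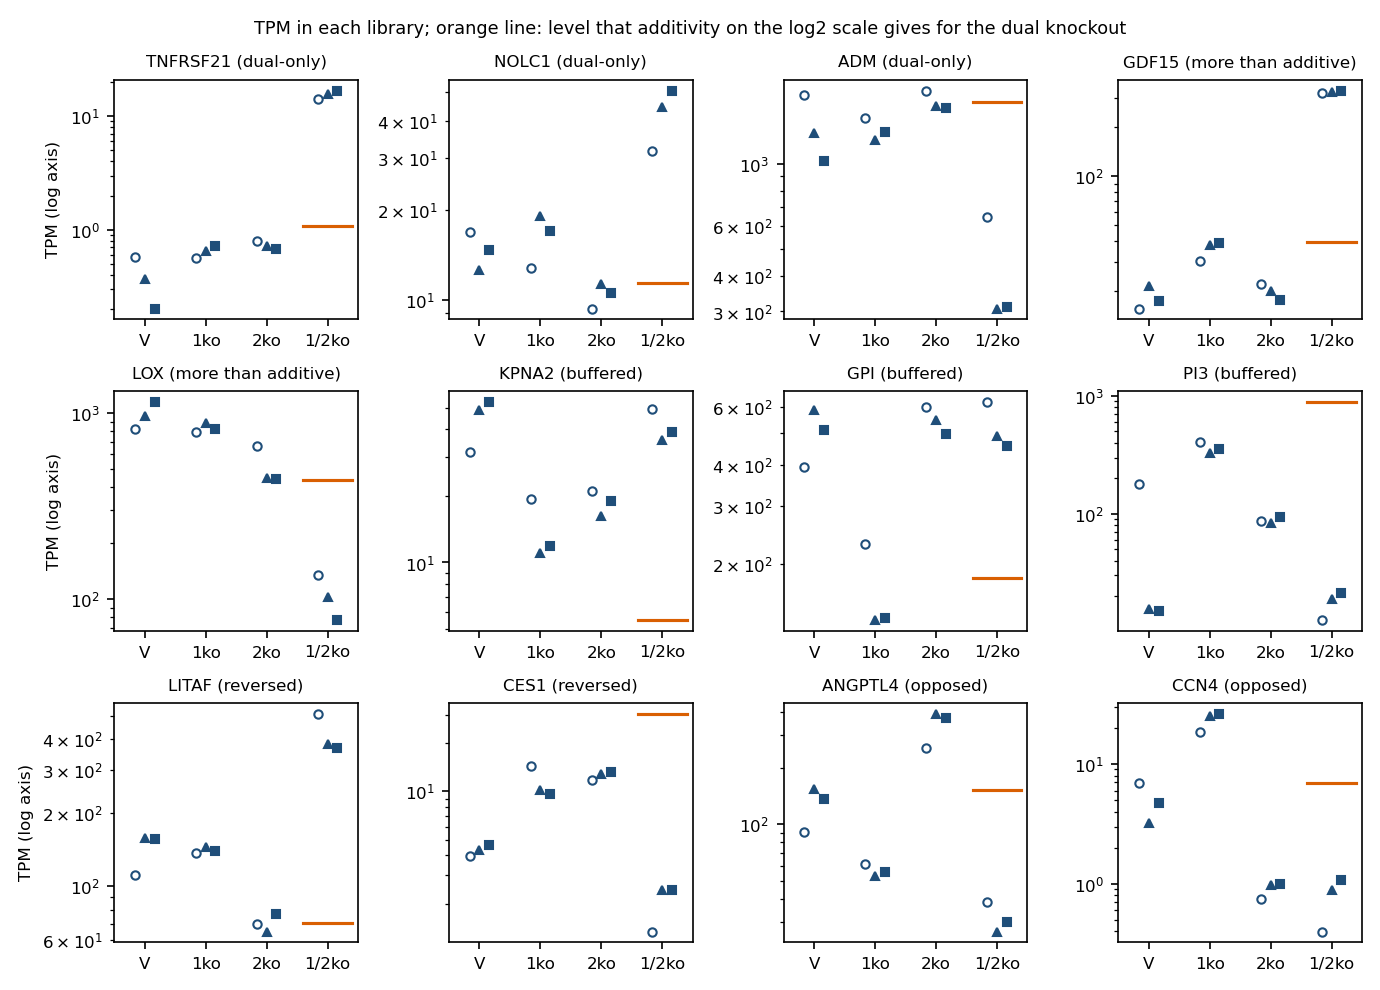
TPM on a log axis in each library of vector (V), HIF1α-ko (1ko), HIF2α-ko (2ko) and HIF1α/2α-ko (1/2ko) for 12 genes; circles, triangles and squares are replicates 1, 2 and 3. The orange line is the level that adding the single changes on the log2 scale gives for the dual knockout, such as 39.4 TPM for GDF15, whose dual libraries sit at 320 to 330 TPM.

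Buffered genes lost in the dual knockout part or all of what a single knockout had done. Of the 783, the dual change was still called in the same direction for 225 and was not called for 558. Both single knockouts were called for 288 of them, HIF1α-ko alone for 291 and HIF2α-ko alone for 204. KPNA2, the importin α that carries proteins into the nucleus and rises with proliferation, fell from 31.5, 48.8 and 52.96 TPM in vector to 19.4, 11.1 and 11.9 TPM in HIF1α-ko and to 21.1, 16.1 and 18.9 TPM in HIF2α-ko. In the dual knockout it was at 49.6, 35.9 and 39.0 TPM, inside the vector range, where additivity gives 5.49 TPM (2.70 ± 0.34, adjusted p = 0.000697). UBALD2, a protein with a ubiquitin-binding fold, was at 160, 314 and 355 TPM in vector, at 46.0 to 82.9 TPM in HIF1α-ko and 71.0 to 113 TPM in HIF2α-ko, and at 197, 96.3 and 111 TPM in the dual knockout (2.76 ± 0.49, adjusted p = 0.00316). LCN2, an iron-siderophore-binding lipocalin, fell to 4.29, 0.961 and 1.27 TPM in HIF1α-ko from 6.06, 19.3 and 19.6 TPM in vector, and stood at 35.2, 31.1 and 34.9 TPM in the dual knockout. Its interaction was 4.12 ± 0.71 (adjusted p = 0.00282), and 4.63 without the first vector library.

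In the other direction, PI3, the elastase inhibitor elafin, was at 404, 329 and 353 TPM in HIF1α-ko and 86.0, 83.6 and 93.5 TPM in HIF2α-ko, but at 12.5, 18.8 and 21.2 TPM in the dual knockout. The vector libraries were at 180, 15.6 and 14.8 TPM, so the first lay inside the range between the single knockouts and the other two beside the dual knockout. The interaction was -5.61 ± 0.96 (adjusted p = 0.00283) with all libraries and -6.77 without the first vector library. COL1A2, a chain of type I collagen, showed the same layout, with vector at 261, 47.2 and 49.9 TPM, single knockouts at 187 to 275 TPM and the dual knockout at 59.9, 44.5 and 51.3 TPM (-3.63 ± 0.67, adjusted p = 0.00383, and -4.43 without the first vector library).

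For genes that both single knockouts moved the same way, the departure was nearly always toward less than the sum. Of 283 genes that both raised, the interaction was negative for 137 and positive for 8. Of 245 genes that both lowered, it was positive for 160 and negative for 1. The single changes and the interaction share the vector libraries, whose error enters them with opposite signs and moves these counts in this direction; how far was not tested.

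Reversed genes moved against their single-knockout change once both factors were gone. LITAF, a lysosomal regulator of inflammatory cytokines, was at 111, 158 and 157 TPM in vector and 137, 144 and 139 TPM in HIF1α-ko, fell to 70.0, 65.2 and 77.1 TPM in HIF2α-ko and rose to 508, 382 and 370 TPM in the dual knockout (2.54 ± 0.23, adjusted p = 0.000136). KPNA1, another importin α, was at 9.01 to 9.90 TPM in vector, 5.42 to 6.14 TPM in HIF2α-ko and 34.1, 37.7 and 35.7 TPM in the dual knockout (2.69 ± 0.23, adjusted p = 9.5e-05). The loss of HIF2α thus lowered both genes when HIF1α was present and left them above every other library when HIF1α was absent. FBXO32, the atrophy-linked ubiquitin ligase atrogin-1, fell from 20.6, 39.0 and 34.4 TPM in vector to 14.2, 11.3 and 11.2 TPM in HIF1α-ko and rose to 141, 62.5 and 67.6 TPM in the dual knockout (2.602 ± 0.45, adjusted p = 0.00282).

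CES1, a liver-type carboxylesterase, had the most negative reversed term. It rose from 3.96, 4.29 and 4.61 TPM in vector to 14.5, 10.2 and 9.58 TPM in HIF1α-ko and to 11.8, 12.8 and 13.1 TPM in HIF2α-ko, and fell to 1.34, 2.42 and 2.43 TPM in the dual knockout, where additivity gives 30.4 TPM (-3.38 ± 0.27, adjusted p = 7.3e-05). No 2 of vector, the pooled single knockouts and the dual knockout overlapped. NMB, the peptide neuromedin B, rose to 677, 546 and 547 TPM in HIF2α-ko from 295, 145 and 131 TPM and fell to 121, 80.1 and 82.5 TPM in the dual knockout (-2.40 ± 0.36, adjusted p = 0.00168). Without the first vector library the term of NMB was -2.765. WFDC3, a WAP-domain protein, was at 18.6 to 35.6 TPM in vector, 44.6 to 56.9 TPM in HIF1α-ko and 7.80 to 9.15 TPM in the dual knockout (-2.35 ± 0.35, adjusted p = 0.00144).

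Opposition was rare. Over all tested genes, the single knockouts were called in opposite directions for 94, of which 33 also departed from additivity. HIF1α-ko lowered and HIF2α-ko raised 65 of the 94; the dual knockout was called with HIF1α-ko for 38 of these, with HIF2α-ko for 5 and was not called for 22. HIF1α-ko raised and HIF2α-ko lowered the other 29; there the dual knockout was called with HIF1α-ko for 8, with HIF2α-ko for 16 and was not called for 5. In both sets the larger share of dual calls was therefore downward.

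ANGPTL4, a secreted inhibitor of lipoprotein lipase and a classical hypoxia target, was at 91.5, 154 and 137 TPM in vector, fell to 61.5, 53.1 and 55.5 TPM in HIF1α-ko and rose to 256, 390 and 368 TPM in HIF2α-ko. With both factors gone it was at 38.5, 26.7 and 30.2 TPM, below all other libraries, where additivity gives 152 TPM (-2.24 ± 0.30, adjusted p = 0.000993). The higher level after HIF2α loss was thus seen with HIF1α present and not without it. CCN4, a matricellular protein of the WNT pathway also known as WISP1, went the other way: 6.95, 3.23 and 4.70 TPM in vector, 18.3, 25.2 and 26.2 TPM in HIF1α-ko and 0.741, 0.977 and 0.999 TPM in HIF2α-ko. The dual knockout stayed with HIF2α-ko at 0.399, 0.885 and 1.07 TPM (-2.17 ± 0.34, adjusted p = 0.00187). LPO, lactoperoxidase, was at 6.45 to 7.88 TPM in vector, 3.36 to 4.38 TPM in HIF1α-ko, 9.88 to 11.6 TPM in HIF2α-ko and 0.588 to 0.801 TPM in the dual knockout (-2.01 ± 0.21, adjusted p = 0.000286).

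Among opposed genes with positive terms, LARP1, an RNA-binding regulator of ribosomal protein mRNAs, was at 42.5 to 51.3 TPM in vector, 56.9 to 67.2 TPM in HIF1α-ko, 29.7 to 32.8 TPM in HIF2α-ko and 88.4 to 96.1 TPM in the dual knockout (1.19 ± 0.17, adjusted p = 0.00133). The 4 groups did not overlap. ACTN1, the actin crosslinker α-actinin, followed the same order at 223 to 273, 298 to 333, 166 to 181 and 339 to 389 TPM (0.72 ± 0.16, adjusted p = 0.00807). POLRMT, the mitochondrial RNA polymerase, was at 9.98, 20.1 and 19.8 TPM in vector, 9.201 to 10.01 TPM in HIF1α-ko, 27.0 to 29.1 TPM in HIF2α-ko and 36.4 to 41.2 TPM in the dual knockout (1.14 ± 0.30, adjusted p = 0.0197). Its first vector library lay inside the HIF1α-ko range, and without that library its term was 1.45.

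Among the hypoxia markers, 3 of the called genes were dual-only, 3 opposed, 4 buffered and 4 more-than-additive. Of 31 tested members, 12 had a negative term and 2 a positive one, beside 7.35% and 13.2% of all genes, and the median interaction was -0.45 against 0.12 over all genes. In the dual knockout 22 of the 31 were lower than vector, beside 14.8% of all tested genes. In HIF1α-ko 19 were lower (all genes: 8.77%) and in HIF2α-ko 3 (5.89%). The negative calls numbered 11 or 12 with any 1 library left out. The positive calls went from 2 to 8 without the first vector library, and 17.5% of all genes then had a positive and 12.9% a negative term. The members described here beyond ANGPTL4, LOX and TMEM45A were chosen after their values were seen.

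Redundant loss, in the form of the dual-only pattern, was seen for 3 of these genes with all libraries included. ADM, the vasodilator peptide adrenomedullin, was at 1749, 1284 and 1017 TPM in vector, 1445, 1210 and 1288 TPM in HIF1α-ko, 1806, 1599 and 1567 TPM in HIF2α-ko and 650, 307 and 311 TPM in HIF1α/2α-ko (interaction -2.05, adjusted p = 0.00334). SLC2A1, the glucose transporter GLUT1, was at 1018 to 1285 TPM in the other 3 groups and at 646, 509 and 499 TPM in the dual knockout (-1.04, adjusted p = 0.00236). CA12, a membrane carbonic anhydrase, was at 280, 254 and 254 TPM in the dual knockout (-1.95, adjusted p = 0.00174). Its other groups differed, at 1498, 736 and 890 TPM in vector, 1353 to 1417 TPM in HIF1α-ko and 618 to 875 TPM in HIF2α-ko. The first vector library of CA12 was the highest of its group, and every HIF1α-ko library lay above vector replicates 2 and 3. The small HIF1α-ko change of CA12, and with it the dual-only pattern, thus rests on the first vector library. Its HIF1α-ko and HIF2α-ko changes of 0.48 and -0.44 lay just inside the limit of 0.5. In each case the dual libraries lay below all other 9.

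Other markers fell with 1 single knockout and fell further without both factors. LOX, the collagen crosslinking enzyme lysyl oxidase, was at 816, 969 and 1140 TPM in vector, 793, 889 and 825 TPM in HIF1α-ko and 663, 446 and 445 TPM in HIF2α-ko, and then at 135, 103 and 77.4 TPM in the dual knockout, where additivity gives 439 TPM (-2.09 ± 0.29, adjusted p = 0.00122). TMEM45A, a membrane protein, fell from 50.2, 63.4 and 73.6 TPM to 12.5, 19.99 and 19.6 TPM in HIF1α-ko and to 4.84, 7.05 and 5.73 TPM in the dual knockout, with 68.3, 94.9 and 99.9 TPM in HIF2α-ko (-1.89 ± 0.31, adjusted p = 0.00236). CA9, the carbonic anhydrase widely stained for tumour hypoxia, went from 1584, 1259 and 1143 TPM to 440, 329 and 335 TPM in HIF1α-ko and 295, 242 and 195 TPM in the dual knockout (-1.04, adjusted p = 0.0122). The loss of HIF2α thus gave no called change of CA9 on its own (log2 0.44, adjusted p = 0.125).

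Opposition and buffering took in the remaining called markers. P4HA2, a collagen prolyl hydroxylase, fell slightly in HIF1α-ko (log2 -0.34, adjusted p = 0.0209), rose in HIF2α-ko (0.64, adjusted p = 0.00286) and fell in the dual knockout (-0.54, adjusted p = 0.000593). LOXL2, a lysyl oxidase relative, rose in HIF1α-ko from 2238 to 2339 TPM in vector to 3153 to 3506 TPM, and fell to 1118 to 1294 TPM in HIF2α-ko and 887 to 961 TPM in the dual knockout (interaction -0.96, adjusted p = 0.00125). DDIT4, an inhibitor of mTORC1, was at 759, 399 and 354 TPM in vector and rose to 1248 to 1465 TPM in HIF2α-ko, but was at 369, 629 and 589 TPM in the dual knockout (-2.03, adjusted p = 0.00338). PDK1, a kinase that inhibits pyruvate dehydrogenase, had a positive term. It fell from 17.4 to 24.8 TPM in vector to 4.93 to 5.81 TPM in HIF1α-ko and only to 10.2 to 14.4 TPM in the dual knockout (1.15, adjusted p = 0.0107).

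Of the 10 HIF genes and oxygen sensors, 1 had a positive and 1 a negative term, beside 13.2% and 7.35% of all genes. EGLN3, an oxygen-sensing prolyl hydroxylase and itself a HIF target, had the strongest departure among the 10. It was at 19.7, 6.68 and 7.66 TPM in vector, 19.3, 22.3 and 24.7 TPM in HIF1α-ko, 7.09, 12.7 and 13.2 TPM in HIF2α-ko and 0.771, 2.96 and 2.21 TPM in HIF1α/2α-ko. The interaction was -3.09 ± 0.54 (adjusted p = 0.00305), and -3.54 without the first vector library. It was not sorted, because its HIF1α-ko change was not called but exceeded 0.5.

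Promoter sequence was read for the tested genes and is shown for the more-than-additive markers LOX and CA9 and the opposed marker ANGPTL4. For dual-only genes only the shares are given. RefSeq promoters (GRCh38.p14, 250 bases before to 50 after the start) matched 9441 of the tested genes by gene identifier or, failing that, by symbol. The hypoxia response element core ACGTG, on either strand, was in 27.3% of these promoters, in 14 of the 25 hypoxia marker promoters (56%) and in 7 of 13 of those with a called interaction. Among the patterns the share was 37.5% for opposed (9 of 24), 26.6% for dual-only, 26.3% for more-than-additive, 27.4% for buffered and 23% for reversed genes, so near the share over all genes for all but the small opposed group. Within the dual-only genes it was 28.7% for those higher and 19.9% for those lower in the dual knockout. GCGTG, the other form of the core, was in 52% of the hypoxia marker promoters, in 30.8% of those with a called interaction and in 50.9% of all promoters. The capitals below mark the core, written CACGT where it lies on the other strand.
LOX promoter, chr5:122078210-122078509 (minus strand): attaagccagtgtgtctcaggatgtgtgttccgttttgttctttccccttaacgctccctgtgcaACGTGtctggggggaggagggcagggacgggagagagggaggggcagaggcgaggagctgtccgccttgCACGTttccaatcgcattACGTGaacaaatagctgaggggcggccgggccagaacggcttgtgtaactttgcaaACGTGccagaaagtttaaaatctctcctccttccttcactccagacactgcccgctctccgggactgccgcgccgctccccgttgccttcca
CA9 promoter, chr9:35673678-35673977 (plus strand): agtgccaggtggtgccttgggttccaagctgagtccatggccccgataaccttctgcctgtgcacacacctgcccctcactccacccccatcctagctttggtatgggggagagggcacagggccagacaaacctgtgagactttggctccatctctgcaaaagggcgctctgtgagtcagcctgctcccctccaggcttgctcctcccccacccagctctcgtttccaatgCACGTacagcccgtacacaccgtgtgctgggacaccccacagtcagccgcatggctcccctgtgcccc
ANGPTL4 promoter, chr19:8363905-8364204 (plus strand): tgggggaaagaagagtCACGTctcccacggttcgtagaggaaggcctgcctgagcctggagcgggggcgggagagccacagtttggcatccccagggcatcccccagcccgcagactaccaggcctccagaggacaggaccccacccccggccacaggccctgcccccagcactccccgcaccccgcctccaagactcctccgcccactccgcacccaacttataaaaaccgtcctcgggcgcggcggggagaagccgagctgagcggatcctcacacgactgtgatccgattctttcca
The LOX window held 4 matches, at bases -185, -116, -98 and -42 from the start site, and those of CA9 and ANGPTL4 held 1 each, at -18 and -234. A match is a description of the letters in this window and says nothing of binding.

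Glycolysis is the pathway most tied to HIF1α. The list held enzymes and the transporters SLC16A1 and SLC16A3. Of 19 tested members, 14 were lower in HIF1α-ko, beside 8.77% of all genes, with a list median log2 of -1.05. None was lower in HIF2α-ko by limma (0 at an unadjusted p under 0.05). In the dual knockout 10 were lower, beside 14.8% of all genes, with a list median of -0.52. The interaction was positive for 5 and negative for 1, beside 13.2% and 7.35% of all genes, and its median of 0.07 was below the 0.12 of all genes. Of the 6 called, 3 were buffered, 2 opposed and 1 dual-only. GPI, the second enzyme of glycolysis, was at 393, 586 and 509 TPM in vector, 231, 135 and 137 TPM in HIF1α-ko, 600, 546 and 496 TPM in HIF2α-ko and 619, 489 and 455 TPM in the dual knockout. The HIF1α-ko libraries lay below all others, and the dual libraries inside the vector range or above it. The interaction was 1.51 ± 0.30 (adjusted p = 0.00538). HK1, a hexokinase, fell to 413, 441 and 424 TPM in HIF1α-ko from 504, 667 and 626 TPM in vector and was at 642, 632 and 635 TPM in the dual knockout (0.59 ± 0.16, adjusted p = 0.0223). That call was lost with median ratio scaling (adjusted p = 0.1) and without any of 4 libraries (0.0504 to 0.0537), namely HIF1α-ko, HIF1α/2α-ko and vector replicates 3 and HIF2α-ko replicate 1.

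The glycolytic enzymes ENO1, PGAM1 and PGK1, chosen after their values were seen, had calls close to the threshold. ENO1, enolase, fell from 6107, 7449 and 7593 TPM to 1982, 1556 and 1637 TPM in HIF1α-ko and to 3323, 3345 and 3289 TPM in the dual knockout (interaction 0.55, adjusted p = 0.0451). PGAM1, phosphoglycerate mutase, fell from 968 to 995 TPM to 283 to 391 TPM in HIF1α-ko, rose to 1345 to 1500 TPM in HIF2α-ko and was at 633 to 734 TPM in the dual knockout (0.53, adjusted p = 0.0475). PGK1, phosphoglycerate kinase, moved in opposite directions in the single knockouts too but had a negative term (-0.62, adjusted p = 0.0415). None of these 3 was called in every fit with a library left out. The count of positive terms ran from 1 to 5 over those fits. It was 1 without HIF1α/2α-ko replicate 3 or vector replicate 3, 2 without HIF1α-ko replicate 3, HIF1α/2α-ko replicate 2 or HIF2α-ko replicate 1, and 2 with median ratio scaling. It was 3 without vector replicate 2, HIF1α-ko replicate 2, HIF1α/2α-ko replicate 1 or HIF2α-ko replicates 2 or 3.

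Of the 30 gene lists, that of the G2 and M phases had the most buffered members. Of the 50 tested members of the Seurat G2/M list, 17 had a positive term (13.2% of all genes) and none a negative one by limma (at an unadjusted p under 0.05, 29 positive and 1 negative), and the median interaction was 0.82. Of the 17, 16 were buffered, beside 6.67% of all tested genes, and RANGAP1 was reversed. HIF1α-ko lowered 42 of the 50 against vector, HIF2α-ko 16 and the dual knockout 36, beside 8.77%, 5.89% and 14.8% of all genes. The median log2 changes of the list were -1.11, -0.62 and -0.99. The median change on losing HIF2α was therefore -0.62 with HIF1α present and 0.24 with HIF1α absent.

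CDC20, the activator of the anaphase-promoting complex, was at 29.8, 57.1 and 51.8 TPM in vector, 24.8, 11.9 and 14.1 TPM in HIF1α-ko, 37.2, 24.3 and 22.7 TPM in HIF2α-ko and 48.0, 30.8 and 32.6 TPM in the dual knockout (interaction 1.81, adjusted p = 0.013). CKAP5, a microtubule polymerase of the spindle, was at 13.0 to 18.1 TPM in vector, 6.67 to 8.57 TPM in HIF1α-ko, 6.67 to 9.51 TPM in HIF2α-ko and 11.1 to 13.6 TPM in the dual knockout, where additivity gives 3.62 TPM (1.51 ± 0.25, adjusted p = 0.00236). RANGAP1, which drives the Ran nuclear transport cycle, fell from 12.6 to 16.5 TPM to 8.001 to 10.3 TPM in HIF1α-ko and rose to 25.0 to 27.8 TPM in the dual knockout (1.74 ± 0.25, adjusted p = 0.00133). CDK1, the mitotic kinase, was at 18.2, 19.1 and 24.3 TPM in vector, 8.27, 4.92 and 3.86 TPM in HIF1α-ko, 12.7, 8.31 and 9.14 TPM in HIF2α-ko and 10.7, 7.03 and 7.96 TPM in the dual knockout (1.53, adjusted p = 0.0109). MKI67, the Ki-67 antigen, followed CDK1 at lower levels, with 10.1 to 15.8 TPM in vector and 3.34 to 3.64 TPM in the dual knockout (1.36, adjusted p = 0.0357). The dual libraries lay inside the vector range for CDC20, reached it for CKAP5 and lay within or below the HIF2α-ko range for CDK1 and MKI67. In bulk libraries, fewer cells in G2 or M and less of these transcripts per cell cannot be told apart. CDC20, CDK1 and MKI67 were chosen after their values were seen.

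The G2/M count depended on scale and on single libraries. It was 10 with median ratio scaling, when 11.7% of all genes had a positive term, and 11 with quantile normalization. It was 26 without HIF1α-ko replicate 1, 10 without HIF2α-ko replicate 2, and 9 without HIF1α-ko replicate 2 or 3, HIF2α-ko replicate 3 or vector replicate 3. The 35 tested S phase genes showed 2 positive terms and 1 negative, and the 25 DNA replication factors 1 and 0.

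**Figure D4:**
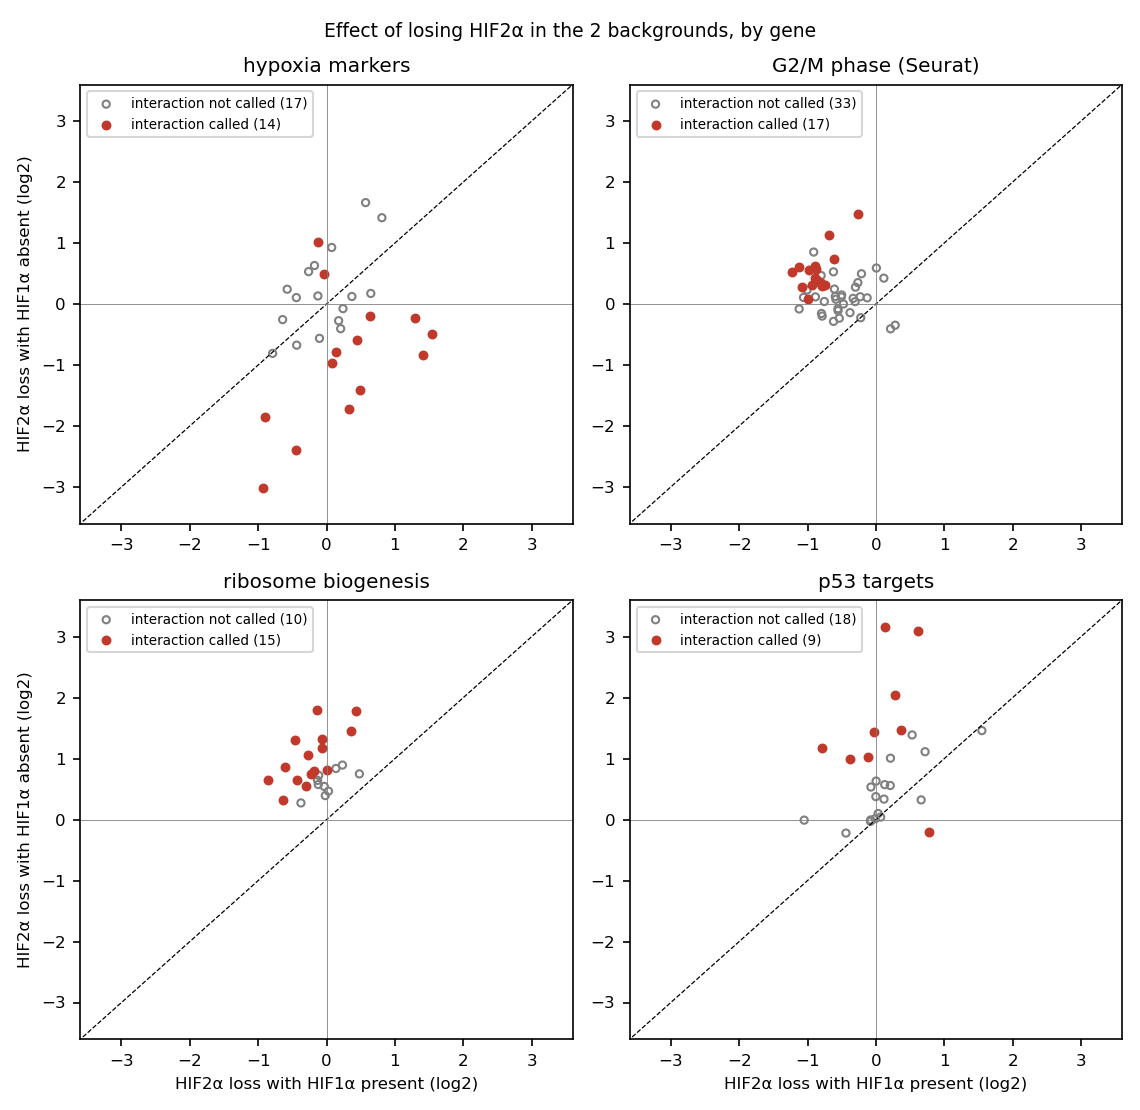
Each point is a tested member of 1 of 4 lists. The horizontal axis is the log2 change on losing HIF2α with HIF1α present (HIF2α-ko minus vector) and the vertical axis the change with HIF1α absent (HIF1α/2α-ko minus HIF1α-ko); the dashed line marks equal effects and red points were called for the interaction. Called hypoxia markers lie mostly below the line, and called G2/M, ribosome biogenesis and p53 genes above it, with 1 p53 gene below.

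The promoters of the G2/M genes held 2 short motifs at a higher share than promoters at large, with no test made. CCAAT was in 29 of 41 (70.7%) and TTTGAA, the core of the cell cycle homology region, in 28 of 41 (68.3%), against 36.5% and 9.46% of all promoters. Among those with a called interaction the counts were 13 and 11 of 15. CDC20 is shown as a list member and KPNA2 as the buffered gene with a like pattern outside the list. Capitals mark CCAAT and TTTGAA, the latter written TTCAAA where it lies on the other strand.
CDC20 promoter, chr1:43358731-43359030 (plus strand): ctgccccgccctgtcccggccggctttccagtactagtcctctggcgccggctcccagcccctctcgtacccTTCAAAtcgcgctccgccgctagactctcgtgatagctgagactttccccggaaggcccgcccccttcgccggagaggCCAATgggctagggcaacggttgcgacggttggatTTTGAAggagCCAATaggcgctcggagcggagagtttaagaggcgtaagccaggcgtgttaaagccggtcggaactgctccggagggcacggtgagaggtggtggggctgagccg
KPNA2 promoter, chr17:68035485-68035784 (plus strand): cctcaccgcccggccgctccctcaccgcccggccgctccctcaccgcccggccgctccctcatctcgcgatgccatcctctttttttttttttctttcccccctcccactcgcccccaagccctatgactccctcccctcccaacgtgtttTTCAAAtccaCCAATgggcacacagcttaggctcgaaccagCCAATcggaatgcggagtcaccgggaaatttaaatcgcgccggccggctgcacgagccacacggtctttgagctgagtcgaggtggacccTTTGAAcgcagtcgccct
CDC20 held CCAAT at -100 and -55 and TTTGAA at -178 and -65. KPNA2 held CCAAT at -89 and -58 and TTTGAA at -99 and 33. Over all buffered genes, however, TTTGAA was in 10.1% and CCAAT in 37.9% of promoters, close to the shares over all genes.

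Ribosome biogenesis was the list with the largest share of positive terms and was mostly dual-only. Of 25 tested members, 15 had a positive term (all genes: 13.2%) and none a negative one by limma (19 and 0 at an unadjusted p under 0.05). Of these 10 were dual-only (6.26% of all tested genes), 4 unsorted and PPAN buffered. The median interaction was 0.95. In HIF1α-ko 1 member was higher and 2 lower than vector, in HIF2α-ko none was called by limma (7 at an unadjusted p under 0.05), and in the dual knockout 17 were higher, beside 31.8% of all genes. NOLC1, a nucleolar chaperone of small nucleolar RNPs, was at 16.9, 12.6 and 14.7 TPM in vector, 12.8, 19.1 and 17.0 TPM in HIF1α-ko, 9.35, 11.3 and 10.6 TPM in HIF2α-ko and 31.6, 44.5 and 50.5 TPM in the dual knockout (1.77 ± 0.28, adjusted p = 0.00195). NOP2, a methyltransferase of the large subunit rRNA, was at 3.37 to 8.18 TPM in the other groups and at 19.2, 33.8 and 32.1 TPM in the dual knockout (1.93 ± 0.32, adjusted p = 0.0025). NCL, nucleolin, was at 40.7 to 47.3 TPM in vector, 25.8 to 31.9 TPM in HIF2α-ko and 47.9, 79.3 and 71.9 TPM in the dual knockout (1.47, adjusted p = 0.00336; chosen after its values were seen).

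The dual libraries of this list were uneven, with the first lowest for NOLC1, NOP2 and NCL. Leaving out that library gave 22 positive terms. The count was 7 without HIF1α/2α-ko replicate 2 or 3, HIF2α-ko replicate 1 or vector replicate 2, 8 without HIF1α-ko replicate 1 or HIF2α-ko replicate 3, and 9 without HIF1α-ko replicate 3 or vector replicate 3. No fit with a library left out gave a negative term. The median ratio and quantile scales gave 15 and 17.

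CACGTG, the palindromic E-box, was in 10 of the 21 ribosome biogenesis promoters (47.6%) and in 5 of 12 of those called, against 10.4% of all promoters. Every CACGTG also contains ACGTG, which was in 14 of the 21. NOP2 is shown, with the E-box in capitals.
NOP2 promoter, chr12:6568242-6568541 (minus strand): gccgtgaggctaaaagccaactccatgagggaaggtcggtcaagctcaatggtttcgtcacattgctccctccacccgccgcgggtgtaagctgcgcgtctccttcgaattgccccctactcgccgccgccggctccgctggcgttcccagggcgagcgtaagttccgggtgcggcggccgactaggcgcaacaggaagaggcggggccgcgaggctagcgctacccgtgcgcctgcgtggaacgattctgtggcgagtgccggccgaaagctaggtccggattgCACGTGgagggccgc
It lay at base 36 after the start. Among all dual-only genes that were higher in the dual knockout, CACGTG was in 13.3% of 450 promoters.

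Of 27 tested p53 targets, 8 had a positive and 1 a negative term, beside 13.2% and 7.35% of all genes, with a median of 0.44, and 17 were higher than vector in the dual knockout (all genes: 31.8%). GDF15, AEN, BBC3 and TP53INP1 were more-than-additive, SESN1, BTG2 and TIGAR dual-only, ZMAT3 reversed and TP53I3, with the negative term, buffered. Of 9 pro-apoptotic members of the BCL2 family, 2 had a positive and 1 a negative term. BBC3, on both lists, the BH3-only killer protein PUMA, was at 3.22 to 4.67 TPM in vector, 5.88 to 7.07 TPM in HIF1α-ko, 4.75 to 6.09 TPM in HIF2α-ko and 18.9 to 19.8 TPM in the dual knockout (1.09 ± 0.22, adjusted p = 0.00607). BAK1, a pore-forming effector of apoptosis, was at 2.02 to 2.39, 4.80 to 6.495, 2.74 to 2.75 and 13.5 to 15.2 TPM in the same order of groups (1.02 ± 0.21, adjusted p = 0.00621). TIGAR, a p53-induced fructose bisphosphatase, did not reach 1 TPM outside the dual knockout, where it was at 3.01, 7.22 and 7.34 TPM (1.77, adjusted p = 0.00468). It therefore passed the filter only through the group where it is high.

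Not every p53 target followed. CDKN1A, the cell cycle inhibitor p21, was at 144 to 205 TPM in the other groups and at 472, 193 and 489 TPM in the dual knockout, and its interaction of 0.79 was not called (adjusted p = 0.16). MDM2, the ubiquitin ligase that limits p53, had a term of 0.38 (adjusted p = 0.641). TIGAR, CDKN1A and MDM2 were chosen after their values were seen. The positive calls on this list numbered 7 to 10 with any 1 library left out and 8 on both other scales. Of 9 survival genes none was called by limma for the interaction (0 positive and 0 negative at an unadjusted p under 0.05). XIAP, an inhibitor of caspases, had a term of 0.58 ± 0.30 (adjusted p = 0.184) and BCL2A1, a BCL2 relative, of -1.26 ± 0.63 (adjusted p = 0.177).

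Of 15 antioxidant genes, 6 had a positive and 1 a negative term (all genes: 13.2% and 7.35%), and 12 were higher in the dual knockout than in vector (all genes: 31.8%). GSR, glutathione reductase, was at 26.4 to 33.8 TPM in the other groups and at 85.4, 140 and 106 TPM in the dual knockout (1.87 ± 0.23, adjusted p = 0.000668). HMOX1, heme oxygenase, was at 21.2, 50.8 and 49.8 TPM in vector, 27.9 to 29.2 TPM in HIF1α-ko, 44.1 to 64.6 TPM in HIF2α-ko and 119, 160 and 161 TPM in the dual knockout (1.76 ± 0.39, adjusted p = 0.00972). The positive count was 8 without HIF1α/2α-ko replicate 1 and otherwise 4 or 5 with 1 library left out.

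Of 22 early-response genes, 7 had a positive term (all genes: 13.2%) and none a negative one by limma (2 at an unadjusted p under 0.05); without the first vector library 7 were positive and 4 negative. DUSP5, a nuclear phosphatase of ERK, was at 43.9 to 52.2 TPM in vector, 47.7 to 71.0 TPM in HIF1α-ko, 86.96 to 102 TPM in HIF2α-ko and 264 to 323 TPM in the dual knockout (1.34 ± 0.22, adjusted p = 0.00235). FOSL1, the AP-1 subunit FRA1, was buffered: 1225 to 1500 TPM in vector, 620 to 703 TPM in HIF1α-ko, and 1063 to 1334 TPM in the dual knockout (1.08 ± 0.20, adjusted p = 0.00436). ATF3, a stress-induced transcription factor that is also on the early-response list, was at 12.7 to 44.6 TPM in the other groups and at 131, 155 and 152 TPM in the dual knockout (2.04 ± 0.55, adjusted p = 0.0218). That call was lost without HIF2α-ko replicate 3 (adjusted p = 0.0535) or vector replicate 2 (0.0506).

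Among the remaining lists, single genes with positive terms stood in lists with few calls. BAMBI, a decoy receptor of TGF-β signalling, was at 93.3 to 130 TPM in the other groups and at 420, 248 and 241 TPM in the dual knockout (1.63 ± 0.28, adjusted p = 0.00274). ABCF2 and ABCF1, ABC-family proteins of translation that are not transporters, reached 29.2, 47.5 and 48.3 TPM and 23.5, 32.9 and 29.5 TPM in the dual knockout, from 4.74 to 7.63 TPM and 7.38 to 10.8 TPM in vector (interactions 1.59 ± 0.30 and 1.21 ± 0.25, adjusted p = 0.0044 and 0.00709). BCL3, an atypical IκB protein, fell to 29.6 to 37.9 TPM in HIF2α-ko from 46.6 to 54.9 TPM in vector and rose to 80.5 to 124 TPM in the dual knockout (1.48 ± 0.24, adjusted p = 0.00236). SLBP, the histone mRNA stem-loop binding protein, was at 24.7 to 47.8 TPM in the other groups and 61.4 to 66.9 TPM in the dual knockout (1.00 ± 0.24, adjusted p = 0.014).

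**Figure D5:**
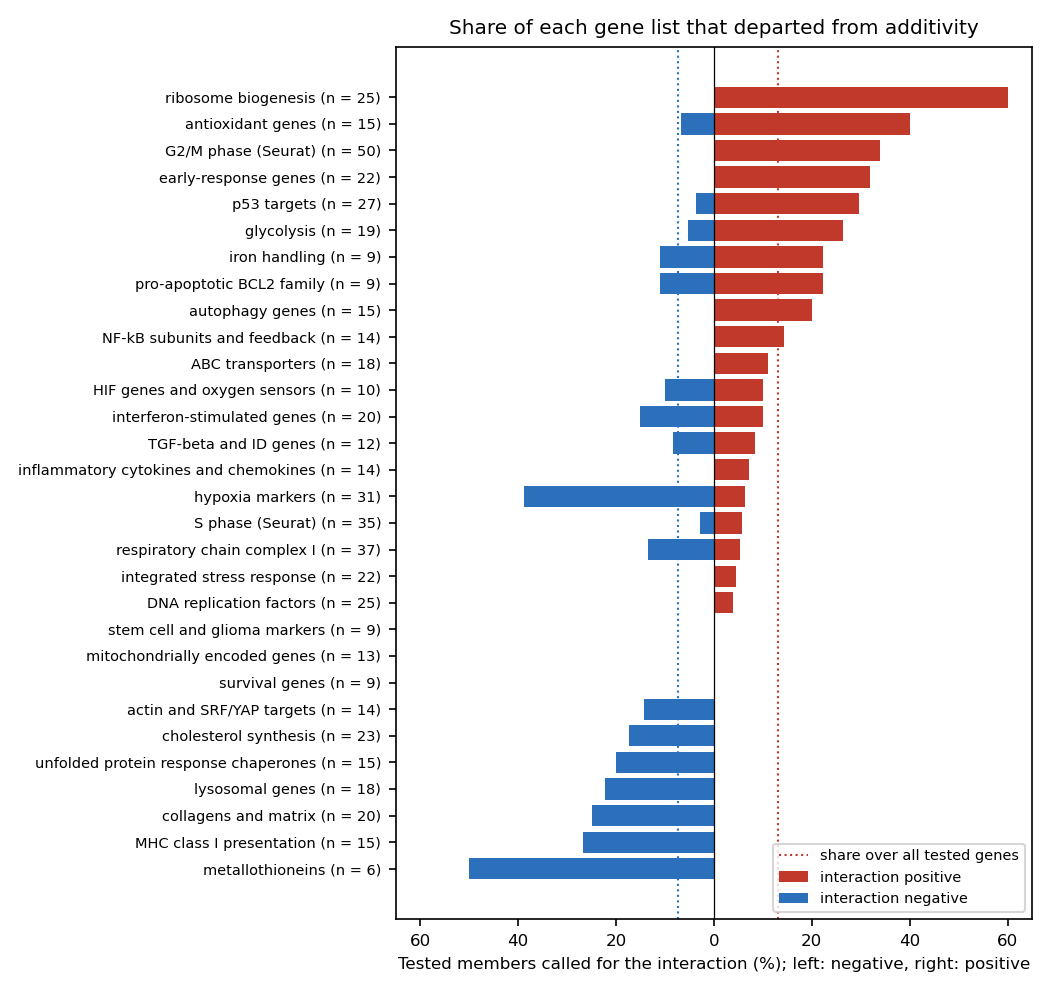
Bars give the percent of tested members of each gene list that were called for the interaction, positive to the right and negative to the left, on a shared axis of percent; n is the number tested. Dotted lines mark the shares over all tested genes, 13.2% positive and 7.35% negative. Ribosome biogenesis has the longest bar to the right and metallothioneins, with 6 members, the longest to the left.

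Negative terms were called for some matrix genes and metallothioneins. Of 20 tested collagen and matrix genes, 5 had a negative term (all genes: 7.35%) and none a positive one by limma (0 at an unadjusted p under 0.05), the median was -0.38, and 12 were lower than vector in the dual knockout (all genes: 14.8%). COL1A1, the other chain of type I collagen, was at 16.3 to 26.8 TPM in the other groups and at 5.53, 6.70 and 7.72 TPM in the dual knockout (-1.57 ± 0.27, adjusted p = 0.00299). Its partner chain COL1A2 was sorted as buffered, with the first vector library as described above. COL6A3, chosen after its values were seen, was at 953, 510 and 518 TPM in vector, 1271 to 1403 TPM in HIF1α-ko, 345 to 523 TPM in HIF2α-ko and 287 to 336 TPM in the dual knockout (-1.51, adjusted p = 0.00608). The list had 5 or 6 negative terms with any library left out other than the first vector library, without which it had 10, and 2 positive.

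TGFBI, a TGF-β-induced matrix protein, was among the most abundant genes named, at 9010, 11280 and 12700 TPM in vector, 13700, 15520 and 14600 TPM in HIF1α-ko, 4150, 5769 and 5294 TPM in HIF2α-ko and 2609, 3162 and 3051 TPM in the dual knockout (-1.20 ± 0.21, adjusted p = 0.00333). Its HIF1α-ko change of 0.42 was not called (adjusted p = 0.0562). ANKRD1, a YAP target of the actin cytoskeleton list, fell from 8.38 to 10.1 TPM to 3.66 to 4.42 TPM in HIF1α-ko and 1.96 to 2.97 TPM in the dual knockout, with 12.1 to 14.5 TPM in HIF2α-ko (-1.12 ± 0.23, adjusted p = 0.0061).

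Of 6 tested metallothioneins, 3 had a negative term with all libraries (all genes: 7.35%), and 3 or, without the first vector library, 5 with 1 left out. These small genes are near-identical copies, between which reads can be shared. MT1F was at 123 to 149 TPM in the other groups and at 60.9, 61.5 and 53.1 TPM in the dual knockout (-1.21 ± 0.16, adjusted p = 0.000899). MT1M was at 2.32 to 3.09 TPM in vector, 4.58 to 6.25 TPM in HIF1α-ko and 0.834 to 1.44 TPM in the dual knockout (-1.67 ± 0.24, adjusted p = 0.00142). STEAP3, a ferrireductase of the transferrin cycle, was at 218 to 523 TPM in the other groups and at 146, 102 and 103 TPM in the dual knockout (-1.45 ± 0.27, adjusted p = 0.00439). Its HIF2α-ko change of -0.49 lay just inside the limit of 0.5 for dual-only genes, while the HIF1α-ko change of NOP2, 0.58, lay just outside it.

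Some cathepsins, class I presentation genes and complex I subunits had negative terms. CTSF, a lysosomal cysteine protease, rose from 51.9 to 59.8 TPM in vector to 84.3 to 93.0 TPM in HIF1α-ko and fell to 39.0 to 41.2 TPM in the dual knockout (-1.30 ± 0.15, adjusted p = 0.000519). CTSB, cathepsin B, rose from 2465 to 2733 TPM to 3528 to 3683 TPM in HIF1α-ko and fell to 1967 to 2279 TPM in the dual knockout (-0.52 ± 0.13, adjusted p = 0.0169, and 0.0535 with median ratio scaling). Of 18 lysosomal genes these were 2 of 4 with a negative term (all genes: 7.35%), and no positive term was called by limma (0 at an unadjusted p under 0.05). The negative count was 7 without the first vector library, 3 without HIF1α/2α-ko or HIF2α-ko replicate 1 or vector replicate 2, and 2 without any other library. Of 15 class I presentation genes, 4 had a negative term (all genes: 7.35%), and 7 did without the first vector library; 2 did without HIF1α/2α-ko replicate 3. HLA-F was at 35.8 to 55.4 TPM in vector, 65.8 to 76.2 TPM in HIF1α-ko, 52.6 to 71.6 TPM in HIF2α-ko and 44.0 to 49.9 TPM in the dual knockout (-1.03 ± 0.24, adjusted p = 0.0104). It shares sequence with other HLA genes. PSMB10, an immunoproteasome subunit, rose to 126 to 152 TPM in HIF2α-ko from 83.7 to 105 TPM and was at 94.0 to 102 TPM in the dual knockout (-0.79 ± 0.17, adjusted p = 0.00878).

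Of 37 subunits of respiratory chain complex I, HIF1α-ko raised 15, HIF2α-ko raised 11 and the dual knockout raised 22, beside 17.3%, 5.07% and 31.8% of all genes. The interaction was negative for 5 and positive for 2, beside 7.35% and 13.2%, with a median of -0.20. NDUFB2 was at 114 to 142 TPM in vector, 199 to 235 TPM in HIF1α-ko, 190 to 243 TPM in HIF2α-ko and 169 to 207 TPM in the dual knockout, where additivity gives 360 TPM (-0.90 ± 0.19, adjusted p = 0.00773). The 3 knockout groups overlapped each other and none overlapped vector. NDUFA2 showed the same order, with 134 to 155 TPM in the dual knockout and 113 to 133 TPM in vector (-0.86 ± 0.17, adjusted p = 0.00613). Without the first vector library 8 subunits had a negative term. Of 13 mitochondrially encoded genes none was called by limma in any contrast against vector or for the interaction (1 positive and 0 negative interactions, and 0 changes against vector, at an unadjusted p under 0.05); their vector libraries were uneven, as MT-CYB shows at 1507, 364 and 548 TPM (interaction 1.19 ± 0.56, adjusted p = 0.152). The median interaction of the 13 was 1.35. Without vector replicate 2, 4 of them had a positive term, MT-CYB among them (adjusted p = 0.0435), and MT-CYB was also called with the replicate block (adjusted p = 0.0484).

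For cholesterol synthesis and inflammatory genes the result rested on the first vector library. Of 23 cholesterol synthesis genes, 4 had a negative term with all libraries (all genes: 7.35%) and 16 without that library, when 12.9% of all genes had one; 2 had one without any 1 of HIF1α-ko, HIF2α-ko or HIF1α/2α-ko replicates 2 and 3 or vector replicates 2 and 3. PMVK, phosphomevalonate kinase, did not depend on it: 12.2 to 13.8 TPM in vector, 20.9 to 24.6 TPM in HIF1α-ko, 17.5 to 20.1 TPM in HIF2α-ko and 12.2 to 16.4 TPM in the dual knockout (-1.20 ± 0.21, adjusted p = 0.00305). Of 14 inflammatory cytokines and chemokines, 1 had a positive and none a negative term by limma with all libraries (3 at an unadjusted p under 0.05), and 1 and 10 without the first vector library. CXCL8, the neutrophil chemokine interleukin-8, was at 301, 50.5 and 53.6 TPM in vector, 153, 357 and 360 TPM in HIF1α-ko, 383, 850 and 974 TPM in HIF2α-ko and 163, 429 and 413 TPM in the dual knockout. Its term was -2.66 ± 0.91 (adjusted p = 0.0551), and -3.50 without that library (adjusted p = 0.00343). CSF1, the macrophage growth factor, was at 13.3 to 38.7 TPM in the other groups and at 190, 90.5 and 83.1 TPM in the dual knockout (1.86 ± 0.49, adjusted p = 0.0209); the call was lost without HIF1α-ko replicate 3 or HIF2α-ko replicate 2 or 3 (adjusted p = 0.0516 to 0.0531).

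Other list members named by rule are given as values. ALDH1A3, an aldehyde dehydrogenase of glioma stem cells, had vector libraries at 43.0, 3.71 and 3.30 TPM and HIF1α-ko libraries at 85.0 to 88.9 TPM, with a term of -2.81 ± 0.95 (adjusted p = 0.0534) and of -3.91 without the first vector library (adjusted p = 9.06e-05). CRELD2, an endoplasmic reticulum chaperone, was at 61.0, 17.9 and 17.4 TPM in vector, 72.4 to 82.5 TPM in HIF1α-ko and 36.4 to 38.0 TPM in the dual knockout (-1.83 ± 0.49, adjusted p = 0.0219, and -2.41 without the first vector library); its call was lost without vector replicate 2 or 3 (adjusted p = 0.0512 and 0.0525). TRIB3, a pseudokinase of the integrated stress response, was at 28.4, 116 and 54.0 TPM in vector and 151 to 185 TPM in the dual knockout (1.31 ± 0.51, adjusted p = 0.0867, and 0.00381 without the first vector library). IFI35, an interferon-induced protein, was at 25.9 to 37.1 TPM in vector, 49.9 to 54.0 TPM in HIF1α-ko and 28.8 to 40.7 TPM in the dual knockout (-0.97 ± 0.23, adjusted p = 0.0115). TPM2, ULK1, ATG16L1, NASP, ORC6, OASL, PDIA6 and NFKBIB were called with adjusted p values of 0.0234 (ORC6) to 0.049 (TPM2), and each of these calls was lost with at least 1 library left out. BMI1, MCM7 and MT-ND6 were not called (adjusted p = 0.059, 0.133 and 0.134). BMI1 was called with the replicate block (adjusted p = 0.0075), with median ratio scaling (0.0479) and without replicate 1 of vector (0.0276) or of HIF1α/2α-ko (0.0329), MT-ND6 without vector replicate 2 (0.0409), and BMI1 and MCM7 without replicate 1 of every group (0.00823 and 0.0111).

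The lists not yet counted held few calls by limma. Of 20 interferon-stimulated genes, 2 had a positive and 3 a negative term. Of 22 integrated stress response genes 1 had a positive term and of 15 chaperones of the unfolded protein response 3 had a negative one. Positive terms were called for 2 of 14 NF-κB genes, 3 of 15 autophagy genes and 2 of 18 ABC proteins, and negative terms for 2 of 14 actin and SRF/YAP targets. The 12 TGF-β and ID genes held 1 of each, and the 9 iron handling genes 2 positive and 1 negative. These counts stand beside 13.2% positive and 7.35% negative terms over all genes, and several moved with single libraries. Without the first vector library the negative terms numbered 9 for the interferon-stimulated, 5 for the NF-κB and 5 for the chaperone list, and the positive terms 4 each for the integrated stress response and autophagy lists. Over all fits with 1 library left out, positive terms ran from 0 to 3 for the interferon-stimulated, 1 to 3 for the NF-κB, 0 to 4 for the autophagy and integrated stress response lists and 2 to 5 for the ABC list, which had 5 without HIF1α/2α-ko replicate 1. Negative terms ran from 1 to 9 for the interferon-stimulated, 0 to 5 for the chaperone and 1 to 3 for the actin list. The 9 tested stem cell and glioma markers held none with all libraries (2 positive and 3 negative at an unadjusted p under 0.05), 2 positive without HIF1α/2α-ko replicate 1, and 1 positive and 2 negative without the first vector library.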

How the data were processed

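Poly(A) mRNA libraries of total RNA from 12 U87 samples were processed by the authors with FastQC 0.11.2, Trimmomatic 0.36, HISAT2 2.0 and bedtools 2.26.0 on GRCh38, as the submitters' processing notes name them. The deposited table holds TPM per gene, computed by the authors; the counting tool and annotation are not given in the sources used here. Of 20263 genes, 20224 were named from the reference tables and 3382 were at 0 in all libraries. Depth is unknown, since TPM keeps none.

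Values were taken as log2(TPM + 1), a scale that understates changes of low genes, for the 11731 genes with at least 1 TPM in at least 3 libraries. limma 3.58.1 (R 4.3.3) was fitted to all 4 groups with a mean-variance trend, and each contrast was adjusted by Benjamini-Hochberg, threshold 0.05; the fit was tested on simulated data with known changes. Errors of the interaction are limma standard errors. Sorting into patterns, lists and figures used Python 3.11.15 with pandas 2.3.3. Where the study's methods state a test, it is for single measurements; none is given for the mRNA-seq table.

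Named genes were the 2 targets and ABCG2; for each pattern and sign, the 3 with the largest interaction among genes called when any 1 library was left out, with a mean of at least 10 TPM in some group; and the 2 members of each of 30 lists with the smallest interaction p. Some genes that this rule names are not reported here. By this selection the interaction call of those pattern genes holds with any 1 library left out. Their pattern was not required to hold. It changed in at least 1 such fit for all 3 negative dual-only genes (TXNIP, TREM1, OLFML3) and all 3 positive opposed genes (LARP1, POLRMT, ACTN1), among others. The members, the lists (the S and G2/M lists are those of Seurat) and the tests were chosen with earlier results of these data known. The same-numbered libraries were not treated as pairs; the check stands with the alternatives. Alternatives were another pseudocount, other filters, 2 other scalings, no trend, a replicate block, each library left out, a size limit and, added after seeing the data, no replicate 1 of any group. Promoter sequences are RefSeq (GRCh38.p14). All columns of values were used.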

Additional observations from a re-analysis of the deposited data

Results flagged for a closer look

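By the test of the interaction itself, 2414 genes responded differently to the loss of 1 factor depending on whether the other was present. In the following genes, given as examples, every library moved one way on losing HIF2α in 1 background and the other way in the other. Other genes named above did so as well, among them LITAF and ANGPTL4, so the trait is not particular to these examples. The loss of HIF2α raised CES1 with HIF1α present and lowered it with HIF1α absent (interaction -3.38). It lowered KPNA2 and CKAP5 with HIF1α present and raised them with it absent (interactions 2.70 and 1.51). It raised PMVK with HIF1α present and lowered it with it absent (interaction -1.20). Groups of 3 libraries are too small for a test of outlying samples, and the first vector library is described with some of the results it touches.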

How the results depend on the processing

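Without 1 library at a time, positive terms numbered 976 to 2051, negative terms 542 to 1513, dual-only genes 462 to 918, more-than-additive genes 91 to 431, buffered genes 367 to 1775, reversed genes 57 to 274 and opposed genes 12 to 62. Quantile normalization gave 1312 negative terms and 55 opposed genes. Requiring every called change to reach 1 on the log2 scale left 901 positive and 475 negative terms, 265 dual-only, 27 more-than-additive, 220 buffered, 4 reversed and 5 opposed genes. Leaving out replicate 1 of every group, chosen after seeing the data, gave 2893 positive and 2147 negative terms, 769 more-than-additive, 2504 buffered, 587 reversed and 215 opposed genes; the cause was not tested. The replicate block gave 414 more-than-additive, 316 reversed and 87 opposed genes. Same-numbered libraries of the 3 knockout groups deviated together (correlation of deviations 0.463 to 0.508 for number 1, 0.196 to 0.250 for numbers 2 and 3), but those of vector did not deviate with them (-0.027 to 0.163), so the numbers were not taken as pairs. All other counts under the other pseudocount, filters, scalings and trend stayed within 1.5 times. In untransformed TPM 1549 of the 1552 positive and 861 of the 862 negative terms kept their sign. Of 75 named genes called, 62 kept direction and call under every alternative, and over all named genes no direction reversed. TPM gives no depth, so how far low counts limit genes near 1 TPM is unknown. The labels do not tie the libraries of a genotype to separate lines or clones, and 1 vector library carries much of the spread.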
